A study of Mus musculus with 4 samples.

Results

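The genes for the TREM receptors, the inhibitory and activating receptors of the PIR, SIRP and CD300 families and the adaptors DAP12 and DAP10 were examined in macrophage cultures of wild-type and GM1082 knockout mice. The 10 genes were taken by symbol from a table of 62046 rows: Trem1, Trem2 and Trem3, the adaptor genes Tyrobp (DAP12) and Hcst (DAP10), Pirb, Sirpa, Cd300a, Cd300lf and Cd300lb. Each symbol was found on 1 row, and all 10 rows passed the filter, which asked for a mean level of 1 FPKM or more. FPKM corrects fragment numbers for gene length and library size, so levels of different genes can be set beside each other on it.

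Marrow from wild-type and GM1082 KO animals was cultured for 5 days with M-CSF, the growth factor of the macrophage lineage, and 2 total RNA libraries were sequenced for each genotype. Both groups received M-CSF, and none of these libraries came from an untreated culture. The labels give no strain, age or sex and do not say how the GM1082 allele was made or whether replicates are separate animals, so the p-values reflect only the spread of these libraries, which may be technical.

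Receptors of these families sit on myeloid cells and many form pairs, in which related outer parts are joined to opposite signals. Activating members such as the TREM receptors have short tails and hold on to DAP12, whose cytoplasmic tyrosine motif (ITAM) recruits the kinase SYK, or to DAP10, whose tail binds phosphoinositide 3-kinase. Inhibitory members such as PIR-B and SIRP alpha carry their own tyrosine motifs (ITIMs), which recruit the phosphatases SHP-1 and SHP-2 and dampen the signal of the activating receptors.

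The cultures are labelled as macrophages, and the 11 macrophage markers listed all had means of at least 1 FPKM, with a summed level of 2524 to 2546 FPKM in wild type and 1982 to 2211 FPKM in the knockout. Neutrophil markers were present as well, at a higher summed level than the macrophage markers in every library. All 12 had means of at least 1 FPKM, with summed levels of 16838 to 18012 FPKM in wild type and 19060 to 22103 FPKM in the knockout, most of it from S100a8 and S100a9. Each of the 12 was higher in knockout replicate 1 than in any other library. Of the 9 mast cell, basophil and eosinophil markers found, summed at 85.0 and 95.6 FPKM in the wild-type libraries, against 214.7 and 116.1 FPKM in those of the knockout, 8 were highest in knockout replicate 1. All 6 B cell markers had means of at least 1 FPKM, whereas 2 of the 7 T and NK cell markers did. These were Nkg7, at 2.18 and 1.38 FPKM in the wild-type libraries, against 5.74 and 2.59 FPKM in those of the knockout, and Cd4, at 1.85 and 2.09 FPKM against 1.27 and 1.60 FPKM, while Cd3e and Cd3g were between 0.064 and 0.218 FPKM. The 7 together summed to 1.59 times the mean of the other 3 libraries in knockout replicate 1. Nkg7 alone made up 5.74 of the 8.09 FPKM summed there. In bulk RNA, fewer cells of a type and less RNA per cell cannot be told apart. All levels given here are those of whole cultures, not of macrophages alone. Gm1082 itself was at 0.0792 and 0.0198 FPKM in the wild-type libraries, against 0.0639 and 0.0624 FPKM in those of the knockout, too low to check the genotype labels. That the label GM1082 means this row rests on the name.

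None of the 10 genes differed between the genotypes past an adjusted p of 0.05 (limma on log2(FPKM + 1), Benjamini-Hochberg over 24535 rows tested), and 0 of 10 had an unadjusted p below 0.05. Of all rows tested, 0.0122% passed the adjusted threshold and 5.36% the unadjusted one. The median log2 change of the 10 genes was -0.00083, beside -0.010 over all rows tested, with 4 genes on the higher and 6 on the lower side. The smallest p belonged to Trem2, which was lower in both knockout libraries. The largest difference upwards belonged to Hcst, and it came from 1 knockout library.

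The adaptor gene Tyrobp was by far the most abundant of the 10, and the adaptor gene Hcst and the lipid-binding receptor gene Trem2 were the least abundant, Hcst in both wild-type and Trem2 in both knockout libraries. In order of mean level over the 4 libraries, Tyrobp stood at 447.2 FPKM, Sirpa at 175.3, Cd300lf at 86.2, Pirb at 51.0, Trem1 at 42.9, Cd300lb at 33.7, Trem3 at 21.2, Cd300a at 17.0, Hcst at 12.4 and Trem2 at 10.5 FPKM. Tyrobp and Sirpa together made up 69.4% of the summed mean level. Of the 9 pairs of neighbours in this order, 2 had library ranges that overlapped, Cd300a with Hcst and Hcst with Trem2, and the order within these pairs is not resolved. Even Trem2 lay above 78.0% of the rows with Ensembl identifiers. Counting error is small at these levels: by the step size of low values, the lowest member value, Trem2 in knockout replicate 2, stood for about 167 fragments per kb of exon, a counting error of 7.74% for a gene of 1 kb.

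**Figure D1:**
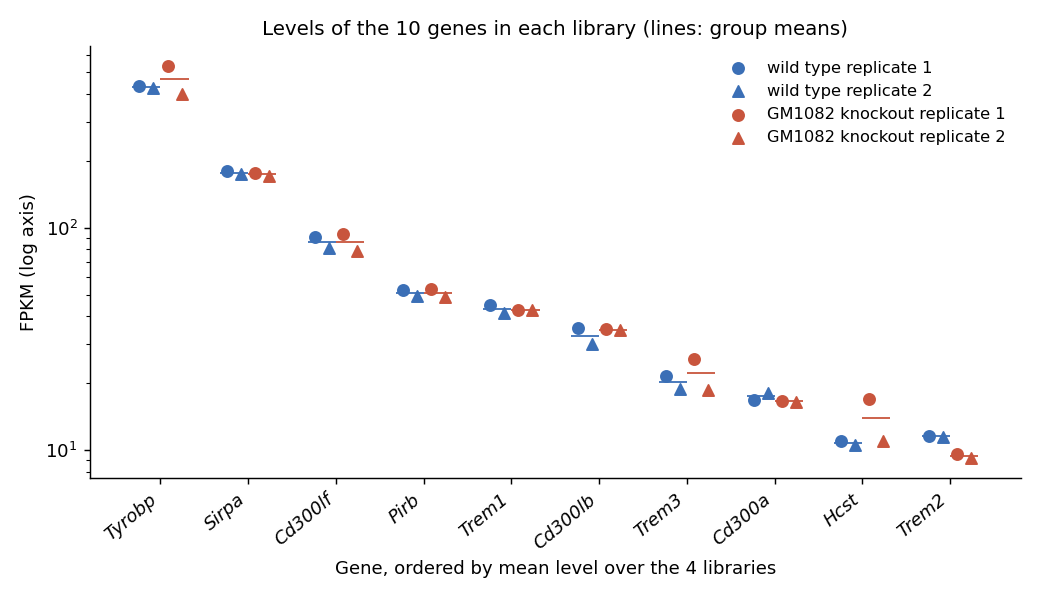
Levels of the 10 genes in each of the 4 libraries in FPKM on a log axis, ordered by mean level, with a short line for each group mean. Tyrobp lies highest at 397.5 to 535.1 FPKM, the wild-type and knockout points of Trem2 are separate, and Hcst has 1 high point in knockout replicate 1.

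Tyrobp encodes DAP12, the ITAM adaptor on which the TREM receptors depend for surface expression and signalling. Its level was 433.6 and 422.6 FPKM in the 2 wild-type libraries, against 535.1 and 397.5 FPKM in knockout replicates 1 and 2. The 2 knockout libraries lay on either side of both wild-type libraries. The group means were 428.1 ± 7.71 FPKM for wild type, against 466.3 ± 97.3 FPKM for the knockout (SD, n = 2 each), a log2 change of 0.11 (95% interval -0.30 to 0.52, limma adjusted p = 1.00). Without knockout replicate 1 the log2 change was -0.11, and with quantile normalization -0.025, so no direction can be given.

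Hcst encodes DAP10, the adaptor that links NKG2D and, in myeloid cells, DAP12-bound receptors to phosphoinositide 3-kinase. It was at 10.97 and 10.6 FPKM in the wild-type libraries, against 17.0 and 10.99 FPKM in those of the knockout. Knockout replicate 1 stood apart, at 1.56 times the mean of the other 3 libraries, while knockout replicate 2 exceeded wild-type replicate 1 only in the second decimal. The group means were 10.8 ± 0.262 and 14.0 ± 4.22 FPKM, a log2 change of 0.32 (95% interval -0.17 to 0.81, limma adjusted p = 1.00), which was 0.025 without knockout replicate 1.

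Trem3, which in the mouse encodes a further DAP12-bound receptor, showed the same high library. It was at 21.5 and 18.8 FPKM in the wild-type libraries, against 25.7 and 18.7 FPKM in those of the knockout. Knockout replicate 1 was highest, at 1.30 times the mean of the other 3 libraries, and knockout replicate 2 was lowest of the 4. The log2 change was 0.12 (95% interval -0.30 to 0.54, limma adjusted p = 1.00) and turned to -0.10 without knockout replicate 1.

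Tyrobp, at 1.28 times the mean of the other 3 libraries in knockout replicate 1, Trem3 and Hcst thus deviated most in the library in which the 12 neutrophil markers summed to 1.23 times and the 9 mast cell, basophil and eosinophil markers to 2.17 times the mean of the other 3. The macrophage markers summed to 0.817 times that mean in the same library, and to 0.986 times without Lyz2. Other lists were high there too: T and NK cell markers at 1.59 times and osteoclast markers at 1.30 times. Without Mmp9 the osteoclast markers were at 0.827 times. B cell markers were at 1.21 times, but their sum was higher in wild-type replicate 2 (171.2 FPKM) than in knockout replicate 1 (169.3 FPKM). It was lowest in wild-type replicate 1 (113.8 FPKM). Dendritic cell markers were at 0.873 times and erythroid markers at 0.874 times. Trem1 was at 0.989 times the mean of the other 3 libraries. The part of these cell types in the values was not tested.

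**Figure D2:**
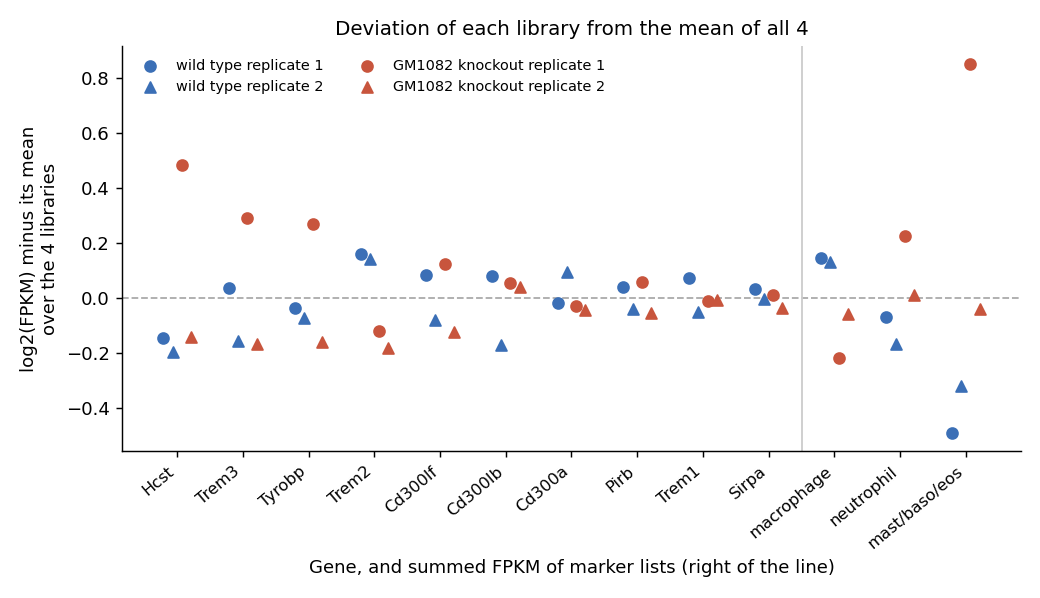
Deviation of each library from the mean of the 4 libraries in log2(FPKM), for each of the 10 genes and, right of the vertical line, for the summed FPKM of 3 marker lists. Knockout replicate 1 lies highest for Hcst (0.48), Trem3 (0.29), Tyrobp (0.27), the neutrophil list (0.23) and the list of mast cells, basophils and eosinophils (0.85), while both wild-type points of Trem2 lie above both knockout points.

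By likeness of profile over the 4 libraries (Euclidean distance between centred log2(FPKM + 1) values, among 7770 other rows with means of at least 5 FPKM), the nearest rows to these 3 genes shared the high value in knockout replicate 1. Nearest to Tyrobp were Pstpip1 (distance 0.0068), Bcl3 (0.016) and Samd4b (0.017). Nearest to Hcst were Socs3 (0.025), Syne1 (0.066) and Ppp1r35 (0.071). Nearest to Trem3 were Ninj1 (0.031), Mir3473g (0.035) and Timm17b (0.042). The rows were picked for this likeness, so the shared high value was fixed in advance. Profiles over 4 libraries have few ways to differ, so these are descriptions only.

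Trem2 encodes the DAP12-bound receptor for lipids, lipoproteins and dying cells that is known from microglia, osteoclasts and tissue macrophages. Its level was 11.6 and 11.5 FPKM in the 2 wild-type libraries, against 9.57 and 9.19 FPKM in knockout replicates 1 and 2. Both knockout libraries lay below both wild-type libraries, and the spread within each genotype was small. The group means were 11.6 ± 0.103 and 9.38 ± 0.270 FPKM, a fold of 0.827 on the log2(FPKM + 1) scale. The log2 change was -0.27 (SE 0.11, 95% interval -0.55 to 0.00097, limma adjusted p = 0.935). The unadjusted p was 0.0506, which placed Trem2 at rank 1326 among the 24535 rows. Groups were also separated downwards in 17.7% of all rows tested. The log2 change stayed between -0.30 and -0.25 when any 1 library was left out. The summed macrophage markers were lower in both knockout libraries as well, through Lyz2 (1907 and 1935 FPKM in the wild-type libraries, against 1373 and 1586 FPKM), while 5 of the 11 had higher knockout means, among them C1qa and C1qb. The 10 markers other than Lyz2 summed to 589.8 to 639.1 FPKM in wild type and 609.4 to 624.9 FPKM in the knockout. The 7 osteoclast markers found summed to 167.3 to 183.1 FPKM in wild type and 161.7 to 221.3 FPKM in the knockout. Most of it came from the protease gene Mmp9. The other 6 summed to 53.3 to 59.0 FPKM and 44.2 to 48.3 FPKM, most of it in each library from Atp6v0d2 alone. Ctsk, the gene of the bone-degrading protease cathepsin K, was at 7.04 and 6.93 FPKM in the wild-type libraries, against 4.59 and 4.37 FPKM in those of the knockout (log2 change -0.54, unadjusted p = 0.0045, limma adjusted p = 0.581). Atp6v0d2, a proton pump subunit, was at 38.6 and 30.5 FPKM against 24.5 and 25.7 FPKM (-0.44, unadjusted p = 0.0207, limma adjusted p = 0.826). Both thus lay lower in both knockout libraries, as did Trem2, whereas Acp5, the gene of tartrate-resistant acid phosphatase, lay higher at 6.15 and 6.22 FPKM against 8.26 and 8.03 FPKM (0.35, limma adjusted p = 0.846). Of the 7 osteoclast markers, 4 had higher knockout means: Mmp9, Acp5, and Ocstamp and Oscar, the last at 0.239 FPKM or less. Dcstamp overlapped, at 7.01 and 9.42 FPKM in wild type against 6.59 and 9.72 FPKM. The part of these cell types in the level of Trem2 was not tested.

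Trem1, whose product amplifies inflammatory responses of neutrophils and monocytes through DAP12, lies 99.5 kb before Trem2 on chromosome 17 and was more abundant. It was at 45.1 and 41.3 FPKM in the wild-type libraries, against 42.5 and 42.6 FPKM in those of the knockout. Both knockout libraries lay between the wild-type libraries. The log2 change was -0.020 (95% interval -0.28 to 0.24, limma adjusted p = 1.00). In the coordinates of the table (GRCm38), Trem1 (ENSMUSG00000042265) spans 48232768 to 48246924, Trem3 (ENSMUSG00000041754) 48247777 to 48258841 and Trem2 (ENSMUSG00000023992) 48346401 to 48354147, all on the plus strand.

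The ratio of Trem1 to Trem2 within a library does not depend on its scaling. It was 3.88 and 3.60 in wild-type replicates 1 and 2, and 4.44 and 4.63 in the knockout. The log2 ratio was higher in the knockout by 0.28, and by 0.23 to 0.33 with any 1 library left out. Trem2 was 2.68% and 2.72% of the Tyrobp level in wild type and 1.79% and 2.31% in the knockout. Tyrobp was 39.5 and 39.9 times as abundant as Hcst in wild type, and 31.6 and 36.2 times in the knockout. With 2 libraries per genotype an exact permutation test cannot give a p below 1 in 3, so these ratios were not tested, and they rest on the same values of Trem2, Tyrobp and Hcst given above.

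Upstream sequence is printed for the genes with the greatest differences, Trem2 and Hcst, and for Trem1 and Pirb, which are among those whose levels differed less. Of the 10 genes, 7 had a promoter in the RefSeq table (GRCm38.p6), and the 250 bases before the annotated start were searched on both strands for AGGAAGT, reverse complement ACTTCCT, a core of binding sites of PU.1 and other ETS factors of myeloid cells. The motif was in 3 of the 7 windows and in 7.69% of 32851 windows of the same length. The windows are shown 5′ to 3′ on the strand of the gene, with the motif in capitals.
Trem2, chr17:48346151-48346400, plus strand: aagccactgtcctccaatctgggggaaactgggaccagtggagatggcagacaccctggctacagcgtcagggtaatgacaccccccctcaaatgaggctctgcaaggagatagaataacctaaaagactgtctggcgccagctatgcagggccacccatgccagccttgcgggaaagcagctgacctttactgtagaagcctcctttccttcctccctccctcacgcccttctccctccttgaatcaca
Trem1, chr17:48232489-48232738, plus strand: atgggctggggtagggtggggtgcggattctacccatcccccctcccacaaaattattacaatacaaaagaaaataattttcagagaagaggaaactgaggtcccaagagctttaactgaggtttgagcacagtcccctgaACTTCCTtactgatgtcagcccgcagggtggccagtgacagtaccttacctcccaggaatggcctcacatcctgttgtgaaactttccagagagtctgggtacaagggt
Hcst, chr7:30419855-30420104, minus strand: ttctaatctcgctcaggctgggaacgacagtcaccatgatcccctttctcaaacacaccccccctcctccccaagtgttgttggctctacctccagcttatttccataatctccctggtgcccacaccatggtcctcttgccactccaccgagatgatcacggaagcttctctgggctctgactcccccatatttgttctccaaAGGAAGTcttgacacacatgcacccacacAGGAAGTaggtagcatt
Pirb, chr7:3720383-3720632, minus strand: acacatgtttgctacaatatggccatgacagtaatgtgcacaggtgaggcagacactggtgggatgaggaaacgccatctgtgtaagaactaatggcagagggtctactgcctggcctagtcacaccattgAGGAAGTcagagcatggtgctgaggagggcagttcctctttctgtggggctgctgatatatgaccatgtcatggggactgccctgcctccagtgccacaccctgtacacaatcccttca
Hcst held 2 copies, beginning at positions -46 and -17 from the start, Pirb held 1 at position -119 and Trem1 held 1 on the opposite strand at position -109. The windows of Trem2, Cd300a, Cd300lf and Cd300lb held no copy of these letters. The CD300 genes, whose windows are not printed, also differed less than Trem2 and Hcst. A match of letters is a description and does not show binding.

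The log2 changes of the 4 genes for inhibitory receptors lay between -0.071 and -0.00018. Sirpa, whose product binds CD47 on other cells and restrains phagocytosis, was at 179.1 and 174.6 FPKM in the wild-type libraries, against 176.6 and 170.7 FPKM in those of the knockout. The libraries of both genotypes overlapped within a narrow range (log2 change -0.026, 95% interval -0.28 to 0.23, limma adjusted p = 1.00). Pirb, whose product binds MHC class I molecules, was at 52.4 and 49.6 FPKM in the wild-type libraries, against 53.0 and 49.0 FPKM in those of the knockout. Both wild-type values lay between the knockout values (log2 change -0.00018, 95% interval -0.26 to 0.26). The ratio of Sirpa to Pirb was 3.42 and 3.52 in wild type and 3.34 and 3.49 in the knockout. Pirb lies in a cluster of closely related Pira genes on chromosome 7, between which reads may be shared, so its level is uncertain. It spans 3711409 to 3720391 on the minus strand, and Sirpa spans 129592835 to 129632228 on the plus strand of chromosome 2.

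Cd300a and Cd300lf encode ITIM-bearing receptors of the CD300 family, which bind phospholipids exposed on dying cells, and Cd300lb encodes an activating member that signals through DAP12. Cd300a was at 16.8 and 18.1 FPKM in the wild-type libraries, against 16.6 and 16.5 FPKM in those of the knockout. Its knockout libraries lay below the wild-type ones by as little as 0.13 FPKM (log2 change -0.071, 95% interval -0.34 to 0.20). Cd300lf was at 91.0 and 81.3 FPKM in the wild-type libraries, against 93.6 and 78.9 FPKM in those of the knockout. In both genotypes the spread between replicates exceeded the difference of the means (log2 change -0.0015, 95% interval -0.32 to 0.32). Cd300lb was at 35.6 and 29.9 FPKM in the wild-type libraries, against 34.9 and 34.6 FPKM in those of the knockout. The knockout libraries fell between the wild-type ones (log2 change 0.088, 95% interval -0.21 to 0.39). The adjusted p was 1.00 for each of the 3 genes (limma). They lie within 244.0 kb on chromosome 11, Cd300a at 114890041 to 114904654 on the plus strand, and Cd300lb at 114922781 to 114934386 and Cd300lf at 115116214 to 115133992 on the minus strand.

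For the 10 genes together, 2 had groups separated downwards (Trem2 and Cd300a) and 1 upwards (Hcst), beside 17.7% and 13.2% of all rows tested. The 95% intervals of the log2 change reached at most 0.55 downwards, for Trem2 (lower bound -0.55), and 0.81 upwards, for Hcst.

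**Figure D3:**
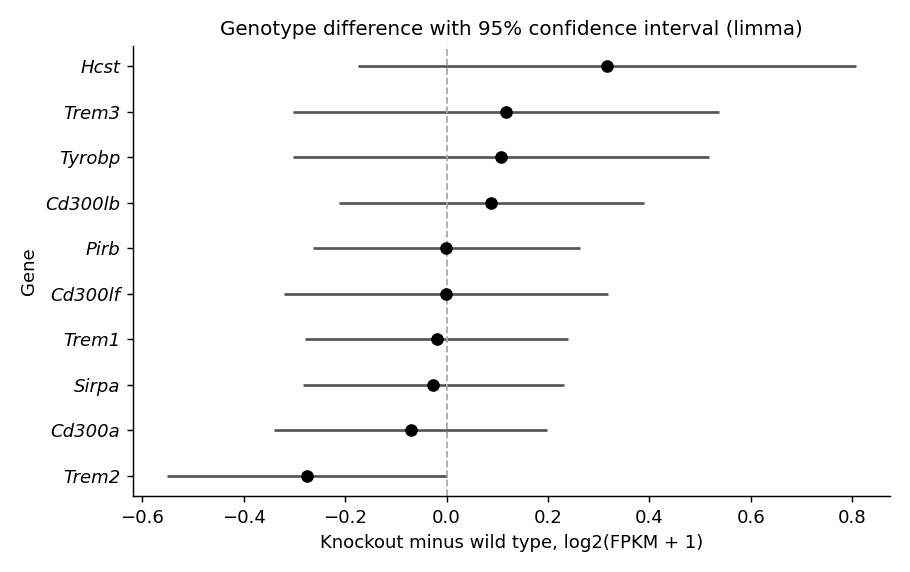
Genotype difference of each of the 10 genes on the log2(FPKM + 1) scale, knockout minus wild type, with 95% intervals from limma. All 10 intervals include 0, that of Trem2 by 0.00097, and the interval is widest for Hcst.

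Noncoding rows of the table overlap 2 of the genes. Within Sirpa lie NONMMUG024642.2, at 38.6 and 36.8 FPKM in the wild-type libraries, against 35.4 and 36.6 FPKM in those of the knockout, and NONMMUG024643.2, at 26.9 and 25.4 FPKM against 21.1 and 24.0 FPKM, both on the strand of Sirpa. Their reads cannot be told apart from those of Sirpa. On the opposite strand of Cd300lb lies NONMMUG008050.2, at 15.2 and 16.7 FPKM in the wild-type libraries, against 21.2 and 15.9 FPKM in those of the knockout. Cd300lf is overlapped on the opposite strand by the gene Rab37, at 3.98 and 4.18 FPKM in the wild-type libraries, against 5.26 and 3.78 FPKM in those of the knockout. None of these 4 rows passed (limma adjusted p = 1.00 each).

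Tyrobp and Hcst share their stretch of chromosome 7 with the targeted gene. In the coordinates of the table, which match GRCm38, Tyrobp (30413760 to 30417585, plus strand) and Hcst (30417712 to 30419854, minus strand) meet end to end, with 126 bases between them. The row with the position of Gm1082 (30515122 to 30522193, plus strand, listed in RefSeq as Arhgap33os) starts 95.3 kb beyond Hcst. Between Hcst and Gm1082 lie 6 rows, of which 2 had a mean of at least 1 FPKM. Nfkbid, which encodes an atypical nuclear inhibitor of NF-kappaB, was at 15.3 and 16.0 FPKM in the wild-type libraries, against 19.1 and 13.9 FPKM in those of the knockout. The pseudogene Rps12-ps4 was at 5.42 and 6.60 FPKM against 7.82 and 6.38 FPKM. Neither passed (log2 changes 0.056 and 0.21, limma adjusted p = 1.00 each). The rows below the filter were not tested. Among them Prodh2, directly before Gm1082, was at 0 FPKM in both wild-type libraries, against 0.184 and 0.157 FPKM in those of the knockout. Such low values rest on few fragments, and the share of rows below the filter separated like this was not counted. The groups of Gm30646, Aplp1 and Kirrel2 overlapped. Tyrobp, Hcst, Nfkbid, Rps12-ps4 and the noncoding row NONMMUG037658.2 before Tyrobp were each highest in knockout replicate 1. Of these 5 rows, Hcst alone had groups that did not overlap, by the margin of 10.97 against 10.99 FPKM given above. Arhgap33, just past Gm1082, was highest in wild-type replicate 2 (1.96 FPKM). Trem3, Cd300lf and Pirb, which lie elsewhere, were also highest in knockout replicate 1. The share of all rows highest in that library was not counted, so the pattern is not shown to be particular to this stretch.

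**Figure D4:**
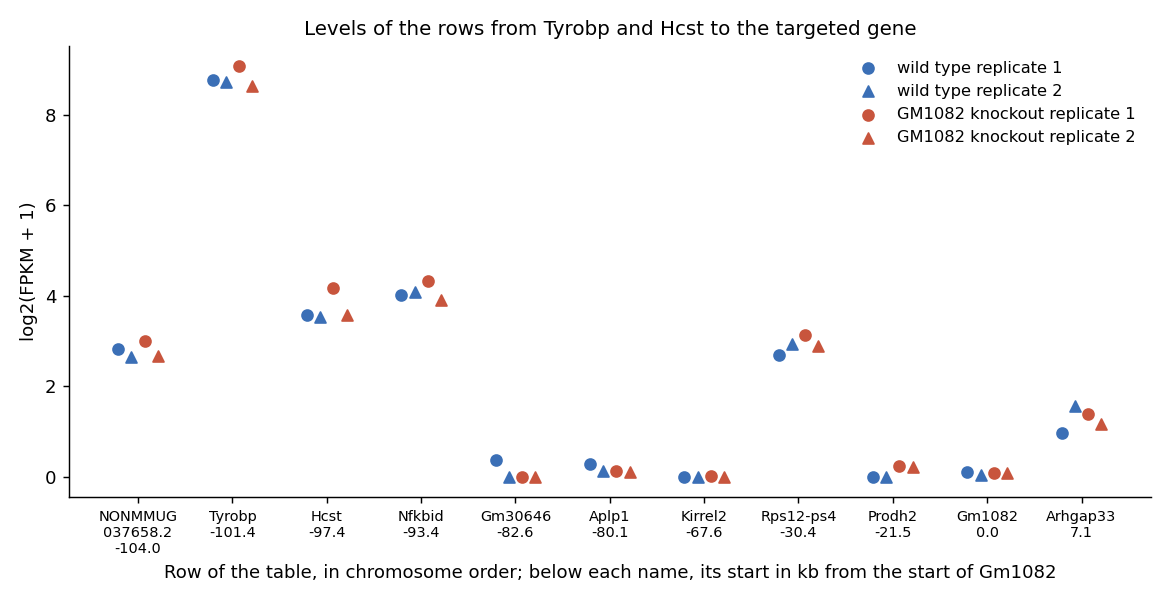
Levels in each library, as log2(FPKM + 1), of the rows from Tyrobp to just past the targeted gene Gm1082 in chromosome order, with the start of each in kb from the start of Gm1082. Tyrobp, Hcst and Nfkbid lie at the far end from Gm1082, and each has its highest point in knockout replicate 1.

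Relatives of the receptors were described from lists of the same families, chosen with earlier results of these data known, and none of their rows passed (limma, all adjusted p of at least 0.786). Pairs of means below are given with wild type first. Of the 2 TREM-like rows tested, Treml2, a receptor of myeloid and B cells, was at 64.4 ± 7.77 FPKM in the wild-type libraries on average, against 62.8 ± 5.32 FPKM in those of the knockout. Of the 3 further CD300 rows tested, Cd300ld was at 18.3 ± 2.00 and 19.9 ± 0.379 FPKM. Of the 7 PIR and LILR rows tested, with a median log2 change of 0.0051, the inhibitory receptor gene Lilrb4 was at 238.4 ± 28.3 and 220.8 ± 7.76 FPKM, and Gm15448, which lies in the Pira cluster, was at 5.18 ± 0.291 and 6.43 ± 0.199 FPKM. Lilrb4 and several PIR rows overlap or resemble their neighbours, so these values are uncertain.

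The SIRP beta genes, which encode activating partners of SIRP alpha that signal through DAP12, lay lower in the knockout without passing. Sirpb1c was at 20.0 and 14.5 FPKM in the wild-type libraries, against 11.2 and 12.9 FPKM in those of the knockout (log2 change -0.47, SE 0.17, limma adjusted p = 0.889). Sirpb1a was at 12.2 and 10.5 FPKM against 7.86 and 9.74 FPKM (-0.33, adjusted p = 0.977, limma). Sirpb1b was at 26.0 and 19.3 FPKM against 18.5 and 18.4 FPKM (-0.26, adjusted p = 1.00, limma). In all 3 both knockout libraries lay below both wild-type libraries, beside 17.7% of all rows. These genes have similar sequences on chromosome 3, so they may share reads and are not separate observations. Without wild-type replicate 1 the changes were -0.25, -0.24 and -0.059, in the same order. The log2 change of the inhibitory partner Sirpa was -0.026.

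Of 14 other tested receptor genes listed as users of DAP12 or DAP10, 0 passed, 1 had an unadjusted p below 0.05, 11 had lower and 3 higher knockout means, and the median log2 change was -0.088. The groups did not overlap in 5 downwards and 2 upwards. Over all rows tested, the shares were 5.36% below the unadjusted threshold, 17.7% not overlapping downwards and 13.2% upwards. Cd200r4, an activating relative of the CD200 receptor, had the smallest p. It was at 28.5 and 29.2 FPKM in the wild-type libraries, against 18.7 and 23.2 FPKM in those of the knockout (log2 change -0.45, SE 0.13, limma adjusted p = 0.786). Both knockout libraries lay below the wild-type ones. Pilrb2, an activating paired receptor, was at 16.3 ± 0.257 and 13.9 ± 1.24 FPKM, and Itgb3, the beta subunit of the vitronectin receptor, was at 7.67 ± 0.587 and 9.87 ± 1.25 FPKM, both without passing.

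**Figure D5:**
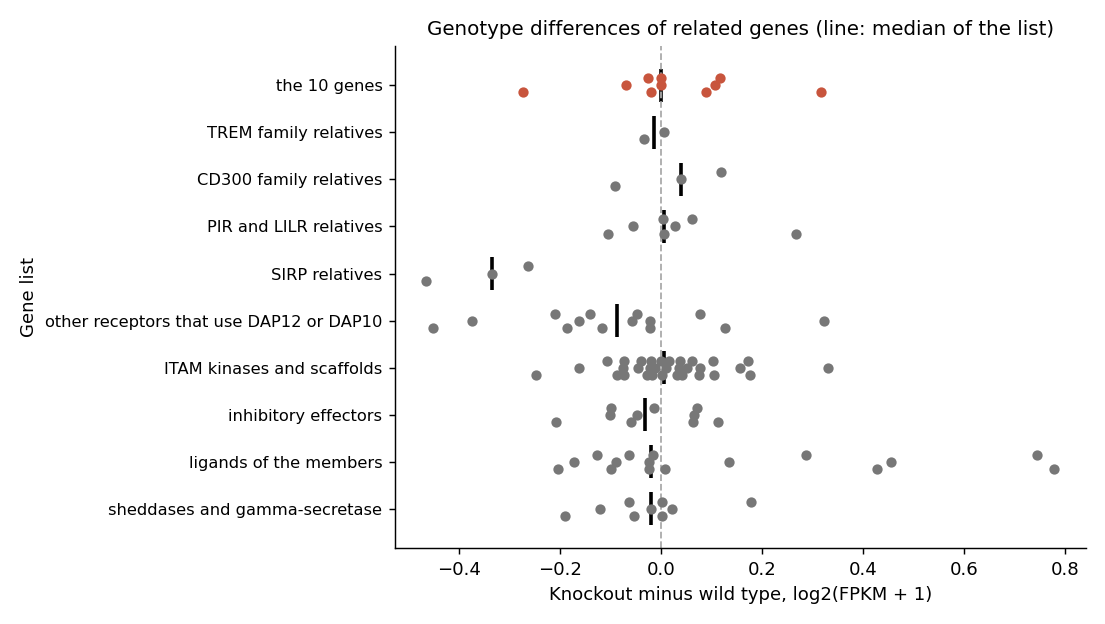
Genotype differences on the log2(FPKM + 1) scale, knockout minus wild type, for every tested gene of each list, with a vertical line for the median of the list. The 10 genes centre on 0 (median -0.00083), the 3 SIRP beta genes all lie below 0 (median -0.33), and 3 of the listed ligands lie above 0.45.

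Among genes downstream of the receptors, differences ran both ways and none passed. Of 32 tested genes for kinases and scaffolds of ITAM signalling, 0 passed and 0 had an unadjusted p below 0.05 (limma), with 17 higher, 15 lower and a median log2 change of 0.0062 in a range from -0.25, for Src, to 0.33, for the lymphoid kinase gene Lck. The groups did not overlap in 6 upwards and 2 downwards, beside 13.2% and 17.7% of all rows tested. Syk, which docks on the phosphorylated ITAM of DAP12, was at 77.6 and 79.6 FPKM in the wild-type libraries, against 83.1 and 72.3 FPKM in those of the knockout. Lyn, a Src-family kinase that phosphorylates these motifs, was at 92.6 ± 2.90 and 87.0 ± 2.34 FPKM, and Src, with the smallest p of the list, at 5.15 ± 0.486 and 4.18 ± 0.513 FPKM. Of the 10 inhibitory effectors, 0 passed and 0 had an unadjusted p below 0.05 (log2 changes -0.21 to 0.11), and the groups did not overlap in 3 upwards and 1 downwards. Ptpn6, the gene of SHP-1, was at 101.0 ± 6.09 and 109.1 ± 0.256 FPKM, Ptpn11, the gene of SHP-2, at 16.4 ± 0.205 and 17.2 ± 0.274 FPKM, and Inpp5d, the gene of the lipid phosphatase SHIP-1, at 41.4 ± 0.599 and 43.5 ± 1.31 FPKM. Pag1, an adaptor that holds the inhibitory kinase CSK at the membrane, was at 37.9 ± 1.91 and 32.7 ± 0.560 FPKM. None of the 9 sheddase and gamma-secretase genes tested, whose products cut TREM2 from the surface, passed or had an unadjusted p below 0.05, with Adam10 at 58.2 ± 1.86 and 53.4 ± 4.99 FPKM.

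Of 16 tested genes for proteins reported to bind these receptors in mouse or human, 0 passed and 3 had an unadjusted p below 0.05 (limma), all 3 higher in the knockout, beside 5.36% in either direction over all rows tested. Apoe, the apolipoprotein E gene and a ligand of TREM2, was at 5.40 and 5.64 FPKM in the wild-type libraries, against 9.90 and 9.92 FPKM in those of the knockout. The replicates of each genotype were close and the groups separate (log2 change 0.74, SE 0.12, unadjusted p = 0.000725, limma adjusted p = 0.433). Angptl2, an angiopoietin-like protein, was at 6.05 and 7.39 FPKM against 9.43 and 9.64 FPKM (log2 change 0.45, limma adjusted p = 0.812). The cytokine gene Il4 was at 1.75 and 1.37 FPKM against 4.18 and 2.69 FPKM (0.78, limma adjusted p = 0.748). Il4 is made by basophils and eosinophils, whose markers were summed above, and their part in its level was not tested. Cd47, the ligand of SIRP alpha, was at 114.0 and 106.0 FPKM in the wild-type libraries, against 107.8 and 102.5 FPKM in those of the knockout, and its groups overlapped (log2 change -0.064).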

How the data were processed

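The authors deposited FPKM values for 62046 rows in 4 libraries, 21500 with Ensembl gene identifiers and symbols and 40546 with NONCODE identifiers. The submitters' processing notes list Bowtie 0.12.2 and build mm9. How reads were assigned to genes, by strand or when they matched repeatedly, is not stated there. The table's positions match RefSeq on GRCm38: among 18844 rows with a known Entrez number, the chromosome was the same in 99.9% and the start was within 1 kb in 87.3%.

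The 10 members, the related lists, the marker lists and the alternatives were chosen with earlier results of these data known. The 10 Ensembl identifiers had the same symbol in a separate table of names. Rows whose mean reached 1 FPKM were tested on log2(FPKM + 1), which understates changes of low genes, with limma 3.58.1 in R 4.3.3 (eBayes with a mean-variance trend, tested on simulated data, two-sided, no block), with Benjamini-Hochberg adjustment read at 0.05. Values after ± are SDs of 2 libraries. FPKM keep no counts, so no count model was used. Depth was read from the steps of low values in noncoding rows of 1 to 3 kb: for a gene 1 kb long, 1 FPKM was worth 17.7 to 19.1 fragments, with 85.3% to 86.0% of low values within 0.05 of a whole number. This covers counting error only. All 10 members were named. Of each related list, the genes with the smallest p, the most abundant ones and those with a role in the members' account could be named. Alternatives were other pseudocounts, filters, scalings and eBayes settings, the replicate number as a block, only the Ensembl rows, and each library left out.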

Additional observations from a re-analysis of the deposited data

How the results depend on the processing

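No member passed under any of the 14 alternatives. Of 140 member values, 129 kept their direction and 11 turned, all in genes whose change was smaller than its error. Changing the filter, the eBayes setting or the block, or keeping only the Ensembl rows, leaves a log2 change as it is. Directions kept there were thus fixed in advance. Only the pseudocount, the scalings and a left-out library could turn a value. With median-of-ratios scaling the log2 change was 0.017 for Pirb and 0.016 for Cd300lf, and with quantile normalization -0.025 for Tyrobp. With 1 library left out, it ran from -0.081 to 0.041 for Trem1, -0.10 to 0.34 for Trem3, -0.11 to 0.32 for Tyrobp, -0.055 to 0.055 for Pirb, -0.12 to 0.12 for Cd300lf and -0.033 to 0.21 for Cd300lb, and, for genes outside the 10, -0.16 to 0.086 for Treml2, -0.23 to 0.015 for Lilrb4, -0.12 to 0.080 for Syk -0.16 to 0.27 for Nfkbid and -0.068 to 0.57 for Mmp9. Trem2, Hcst, Sirpa and Cd300a kept their direction under all alternatives, though their size moved with 1 library left out: Hcst between 0.025 and 0.61, Sirpa between -0.050 and -0.0019 and Cd300a between -0.12 and -0.017, while Trem2 stayed between -0.30 and -0.25. In Trem2, Hcst and Cd300a the groups did not overlap, so leaving out 1 library could not turn the direction. Sirpa was at -0.12 with quantile normalization. The cause of the turns in the other genes was not tested.

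The count of all rows called was 3, and 0 with a filter of 0.1 FPKM or none (more rows tested), and 0 to 21 with 1 library left out (0 without either knockout library, 12 and 21 without wild-type replicate 1 and 2). With the replicate block it was 6, with 0 members among them. Libraries with the same number deviated together with a correlation of 0.051 over the rows tested. This value cannot show whether they were prepared together, which the labels do not state.

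The 95% intervals of the members reach log2 changes of up to 0.81, so with 2 libraries per genotype a missed threshold does not show equal levels.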
